A study of Homo sapiens with 15 samples.

Results

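The B cell line SU-DHL-4 was set against the Burkitt lymphoma line Namalwa, with 1 array of SU-DHL-4 and 2 arrays of Namalwa among the 15 arrays of the series. The arrays were chosen by their titles, and every gene was compared with Namalwa replicate 1 and Namalwa replicate 2 separately as well as with their mean. SU-DHL-4 is labelled as a B non Hodgkin lymphoma and Namalwa as a Burkitt lymphoma. The labels give no treatment for either line, and the design text calls the Namalwa hybridisations biological duplicates and leaves SU-DHL-4 without one. Total RNA of 9 lymphoid lines was hybridised to Affymetrix U133 Plus 2.0 arrays in the study, and the other 12 arrays are 10 of 6 classical Hodgkin lymphoma lines and 2 of Reh, a B acute lymphoblastic leukemia line. Each line descends from 1 patient's tumour, so a difference between them is one between 2 lines and not between 2 diseases.

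Both lines are mature B cell lines. As background, SU-DHL-4 is known as a diffuse large B cell lymphoma line of the germinal centre type and carries a BCL2 rearrangement. Namalwa carries a MYC rearrangement and the Epstein-Barr virus genome. Germinal centre B cells mutate and test their antigen receptors with help from T cells, to which they show antigen on MHC class II molecules, and BCL6 is the transcription factor that holds them in that state.

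The B cell markers CD79A, CD79B, PAX5 and EBF1 were high in both lines. Of 7 measured B cell markers, CD22 alone passed the test between the lines, higher in SU-DHL-4 by 2.00 log2 (adjusted p = 0.00832). MS4A1 was at 12.48 in SU-DHL-4, against 7.98 and 7.04 in Namalwa replicates 1 and 2, and did not pass it. CD79A, a signalling chain of the B cell receptor, was at 12.72 log2 signal in SU-DHL-4 and at 12.03 and 11.92 in Namalwa replicates 1 and 2. Its partner CD79B was at 11.14 in SU-DHL-4 and at 11.81 and 11.82 in Namalwa. The B lineage transcription factor PAX5 was at 10.78 in SU-DHL-4, against 11.96 and 10.95 in Namalwa, and EBF1 at 10.41, against 9.81 and 9.80. None of these 4 genes passed the test between the lines (adjusted p of CD79A = 0.078, CD79B = 0.0923, PAX5 = 0.454 and EBF1 = 0.158), although CD79B did when the arrays were normalized once more (0.0454). In the Hodgkin arrays CD79A reached 6.33 at most and CD79B 5.85.

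The Namalwa arrays differed from each other, and so did those of Reh. Over 19735 genes the difference between duplicates had an SD of 0.52 log2 in Namalwa and of 0.63 log2 in Reh, against 0.24 to 0.36 log2 for the 4 duplicated Hodgkin lines. Namalwa replicate 2 had an upper quartile of 7.31 log2, below the 7.54 to 7.72 of the other 14 arrays. Reh replicate 1 was nearer to SU-DHL-4 over all genes (Pearson's r = 0.955, across genes, which are not independent) than Reh replicate 2 was (r = 0.905). SU-DHL-4 held 24 genes at least 3 log2 above all arrays of the Hodgkin lines and Namalwa, a choice that uses neither Reh array. Reh replicate 1 exceeded Reh replicate 2 by at least 1 log2 in 21 of the 24, and the reverse was so in 0. How many of all genes differed so between the Reh arrays was not counted. SU-DHL-4 lay at least 3 log2 above every array but Reh replicate 1 in 22 genes, and above every array but Reh replicate 2 in 0. The Reh arrays enter the estimate of the spread, and 16 of the 22 were called with both of them. The 22 genes were chosen for lying above both Namalwa arrays, so these calls are no independent result. Leaving out either Reh array takes that line out of the estimate, so the results without Reh replicate 1 and without Reh replicate 2 are the same.

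Over the whole table, 1090 genes were higher in SU-DHL-4 (5.52% of the 19735 tested) and 840 were lower (4.26%), together 9.78%, at an adjusted p under 0.05 from limma. Genes past this threshold are referred to as called, and differences are SU-DHL-4 minus the mean of the Namalwa arrays on the log2 scale, with the SE of the fit. The median difference over all genes was -0.03 log2. SU-DHL-4 lay at least 1 log2 above both Namalwa arrays in 920 genes (4.66%) and at least 1 log2 below both in 687 genes (3.48%). Of the called genes, 714 were at least 1 log2 above both arrays (3.62% of all genes) and 621 at least 1 log2 below both (3.15%). Against Namalwa replicate 2 alone, 1723 genes were at least 1 log2 higher in SU-DHL-4, and against replicate 1 alone 1028 were. Genes at least 1 log2 lower numbered 1249 against replicate 2 and 1149 against replicate 1. Called genes always had SU-DHL-4 on the same side of both arrays. Without Reh replicate 1 the counts were 1482 higher and 1029 lower, and these held all 1090 and 840 of the calls made with every array. Normalizing the arrays once more gave 933 higher and 1080 lower, so the share of higher genes among the called ones was 46.3% in place of 56.5%. The statement about direction in the whole table therefore depended on the scaling. The p-values rest on duplicates of other lines for the spread of SU-DHL-4, which was assumed to vary like them. The number of genes called over the whole table also changed when an array was left out. The shares of 5.52% and 4.26% are therefore no background for list counts without an array.

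**Figure D1:**
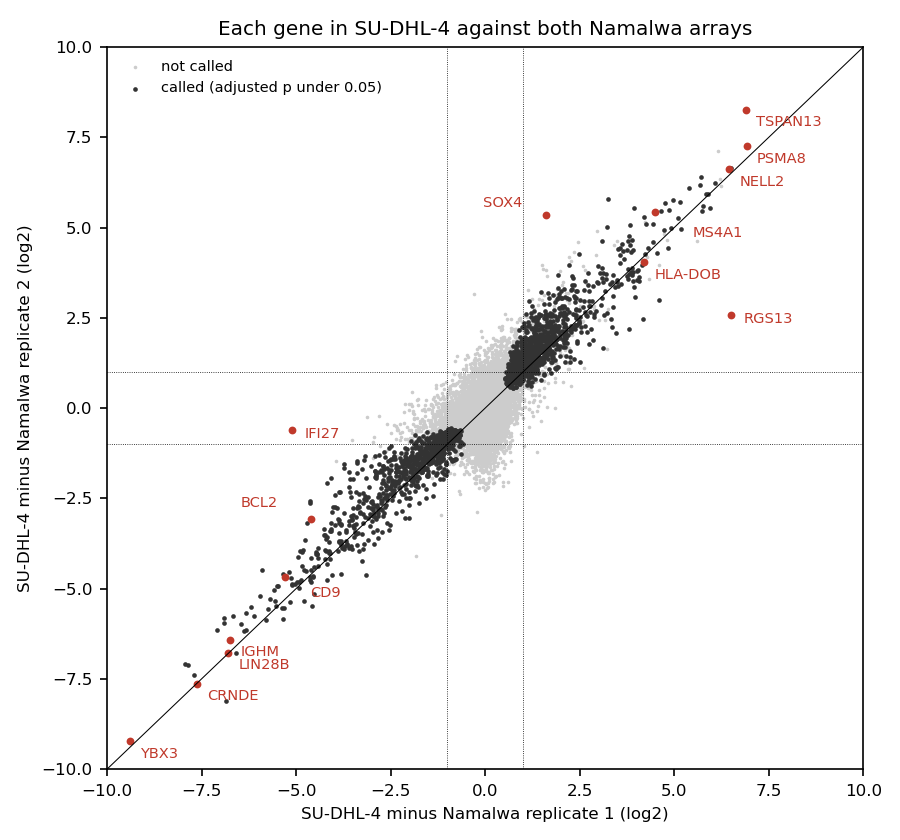
Difference of SU-DHL-4 from Namalwa replicate 1 (horizontal axis, log2) and from Namalwa replicate 2 (vertical axis, log2), 1 point a gene, with called genes dark, some named genes in red, dotted lines at 1 log2 and the line of equal differences. YBX3 and TSPAN13 lie far from 0 against both Namalwa arrays, whereas RGS13, IFI27 and SOX4 lie off the line because the Namalwa arrays differ in them.

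The gene with the largest rise was TSPAN13, which encodes a tetraspanin of the cell membrane. It was at 12.57 in SU-DHL-4, against 5.67 and 4.30 in Namalwa replicates 1 and 2, a difference of 7.58 ± 0.47 log2 (SE, adjusted p = 1.33e-05). TSPAN13 was also high in Reh, at 12.27 and 12.31, and between 4.35 and 10.44 in the Hodgkin arrays. PSMA8, a proteasome subunit known from the testis, followed at 11.02 in SU-DHL-4, against 4.11 and 3.76 in Namalwa (7.08 ± 1.49 log2, adjusted p = 0.0156). Its adjusted p was 0.057 without Namalwa replicate 2. PSMA8 stood at 9.19 in Reh replicate 1, at 3.89 in Reh replicate 2 and at 4.02 or less in the Hodgkin arrays. NELL2, a secreted glycoprotein known from neurons, was at 11.71 in SU-DHL-4, against 5.25 and 5.09 in Namalwa (6.54 ± 1.20 log2, adjusted p = 0.00796). NELL2 had the same pattern in Reh, with 9.70 in replicate 1 and 5.45 in replicate 2. In all 3 genes the arrays of Namalwa lay at least 6 log2 below SU-DHL-4 and close to the lowest arrays of the series.

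Other genes among the 15 with the largest rises had smaller differences. ZNF804A, a zinc finger gene, was at 10.76 in SU-DHL-4, against 4.27 and 4.12 in Namalwa (6.57 log2, adjusted p = 0.0119). TRIM9, a ubiquitin ligase of the brain, was at 9.94, against 3.87 and 3.69 (6.16 log2, adjusted p = 0.000396). MAP2, a microtubule protein of dendrites, was at 10.36, against 4.64 and 3.97 (6.06 log2, adjusted p = 0.0154, and 0.0613 without Namalwa replicate 2). SYBU, which links vesicles to kinesin, was at 9.57, against 3.80 and 3.98 (5.68 log2, adjusted p = 0.00556). NINJ2, an adhesion protein, differed by 5.92 log2 (adjusted p = 0.00307). The noncoding RNA LINC00487 differed by 5.90 log2 (adjusted p = 0.0162, and 0.0543 without Namalwa replicate 2) and the mucin gene MUC19 by 5.88 log2 (adjusted p = 0.0111). PBDC1 and TRIM44 rose by 5.74 log2 each, MAP3K7CL by 5.59, PDZRN4 by 5.43 and TOX-DT, a noncoding transcript that runs outward from the TOX promoter, by 5.37 log2. Of these 15 genes, TSPAN13, PBDC1 and TRIM44 were high in both Reh arrays, and the other 12 had more signal in the first Reh array than in the second. TRIM44 had 3.20 log2 as the mean of its 3 probe sets.

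**Figure D2:**
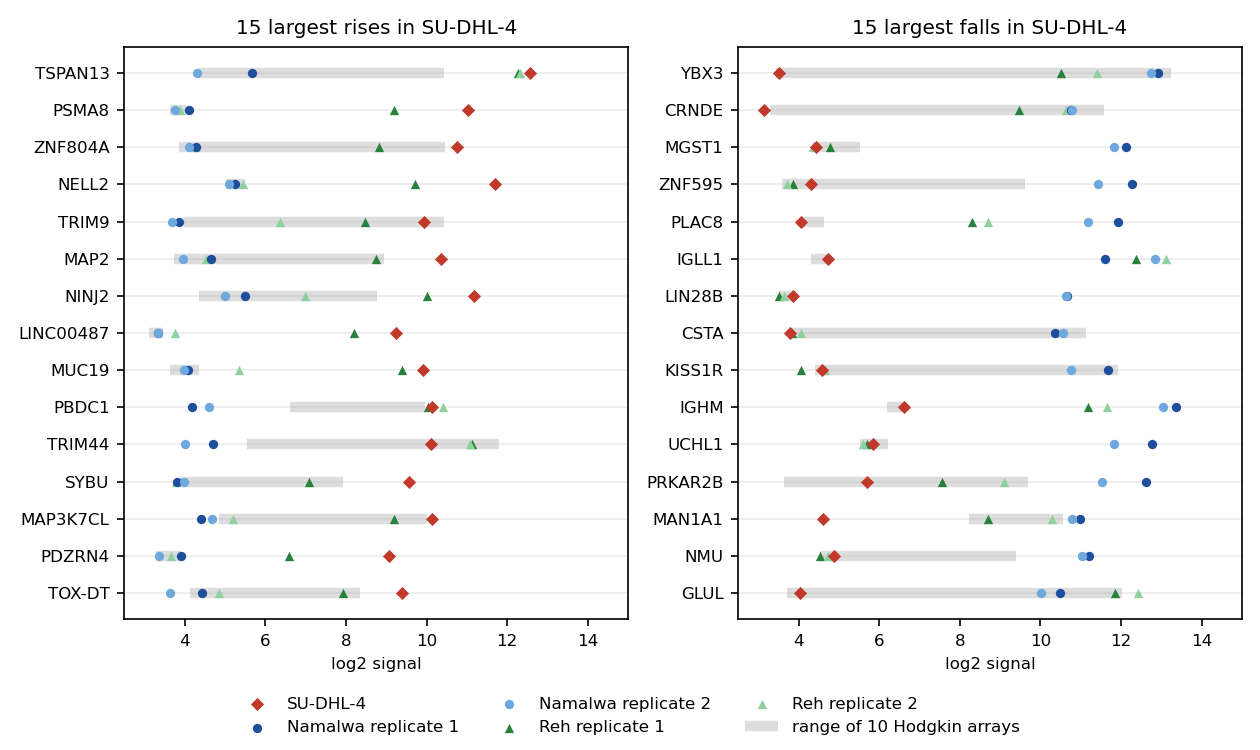
Log2 signal (horizontal axis) of the 15 genes with the largest rises (left panel) and the 15 with the largest falls (right panel) in SU-DHL-4, with a diamond for SU-DHL-4, circles for the Namalwa arrays, triangles for the Reh arrays and a grey bar for the range of the 10 Hodgkin arrays. SU-DHL-4 lies far from both Namalwa arrays in every gene shown, and Reh replicate 1 lies nearer to SU-DHL-4 than Reh replicate 2 does in most genes of the left panel.

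The largest fall in the table was that of YBX3, a protein with a cold shock domain that binds DNA and RNA. It was at 3.52 in SU-DHL-4, against 12.92 and 12.75 in Namalwa, a difference of -9.32 ± 0.32 log2 (SE, adjusted p = 9.6e-07). SU-DHL-4 lay near the lowest signals of the array. YBX3 was at 10.51 and 11.39 in Reh and between 3.45 and 13.24 in the Hodgkin arrays. The other probe sets of YBX3 had differences of -6.67, -1.11 and -0.22 log2, which gave a mean over all 4 of -4.33 log2. LIN28B, which blocks maturation of the let-7 microRNAs, was at 3.87 in SU-DHL-4, against 10.67 and 10.64 in Namalwa (-6.79 ± 0.16 log2, adjusted p = 4.88e-08). It reached 3.90 at most in the Hodgkin arrays and 3.63 in Reh, so the Namalwa arrays stood alone at the high level. The noncoding RNA CRNDE was at 3.15 in SU-DHL-4, against 10.76 and 10.78 (-7.63 ± 0.40 log2, adjusted p = 5.18e-06).

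The 15 largest falls also included IGHM and IGLL1. IGHM, the constant region of the mu heavy chain, was at 6.62 in SU-DHL-4, against 13.36 and 13.03 in Namalwa (-6.58 ± 0.25 log2, adjusted p = 1.19e-06). Of its 5 probe sets, 4 were over 1 log2 lower, the differences of the 5 ran from -7.66 to -0.07 log2, and the mean of IGHM over them was -3.66 log2. IGLL1, part of the surrogate light chain of precursor B cells, was at 4.74 in SU-DHL-4, against 11.60 and 12.84 (-7.49 ± 0.43 log2, adjusted p = 8.33e-06). VPREB1, the other part of that chain, was at 5.46, against 10.01 and 10.11 (-4.60 ± 0.27 log2, adjusted p = 8.33e-06). IGLL1 was also high in Reh, at 12.38 and 13.12, whereas VPREB1 was at 4.18 and 3.65 there. IGLL1 and the immunoglobulin genes have close relatives, so probes of one can bind the RNA of another and these values are uncertain.

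The remaining genes of the 15 follow. MGST1, a membrane glutathione transferase, was at 4.43 in SU-DHL-4, against 12.12 and 11.81 (-7.54 log2, adjusted p = 2.14e-06). GLUL, which makes glutamine, was at 4.04, against 10.49 and 10.02 (-6.22 log2, adjusted p = 1.13e-05), with -2.67 log2 as the mean of its probe sets. MAN1A1, a mannosidase that trims sugars in the Golgi, was at 4.60, against 10.98 and 10.79 (-6.28 log2, adjusted p = 8.98e-05), and between 8.22 and 10.56 in the Hodgkin arrays. The differences were -6.44 log2 for the deubiquitinase gene UCHL1, -6.69 for the protease inhibitor CSTA, -6.37 for the kinase subunit PRKAR2B, -7.49 for PLAC8 and -7.52 log2 for the zinc finger gene ZNF595. KISS1R, the kisspeptin receptor, had -6.63 and NMU, neuromedin U, -6.24 log2. All of these genes were called, PRKAR2B with the highest adjusted p (0.000347). As the mean of all probe sets MGST1 had -4.67, ZNF595 -4.96 and UCHL1 -4.12 log2.

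As a description with no test, some genes set SU-DHL-4 apart from every other array but Reh replicate 1. That array was the nearest to SU-DHL-4 over all genes (Pearson's r = 0.955), and PSMA8 and NELL2 were also high in it. Apart from Reh replicate 1, the called genes that SU-DHL-4 held furthest above all arrays were PSMA8, NELL2, LINC00487, PDZRN4, MUC19 and FCRL3, with the uncalled MS4A1 (4.50 log2 above) lying between MUC19 and FCRL3 (4.55 and 4.44 log2 above). The called genes furthest below all of them were NMI, FNIP2, HOMER1, CREB3L2, PHYH and DOCK10. NMI, which binds STAT proteins and is induced by interferon, was at 4.97 in SU-DHL-4, at 9.51 and 10.12 in Namalwa and at 10.93 or more in the Hodgkin arrays. PHYH, a peroxisomal enzyme that breaks down phytanic acid, was at 4.55 in SU-DHL-4, at 8.79 and 8.49 in Namalwa and at 8.51 or more in the Hodgkin arrays. FNIP2 was at 3.71 in SU-DHL-4, against 9.04 and 9.24, HOMER1 at 4.0, against 9.47 and 8.93, and DOCK10 at 3.53, against 7.94 and 7.68. The means over their probe sets were smaller, at -3.17 log2 for FNIP2, -3.40 for HOMER1 and -2.08 for DOCK10. The called genes that both Namalwa arrays held furthest above all others were LIN28B, MGST1, UCHL1, VPREB1, REC8 and BIK. REC8, the cohesin subunit of meiosis, was at 7.49 in SU-DHL-4, against 12.23 and 11.99 in Namalwa, and reached 8.24 at most elsewhere, with -2.44 log2 as the mean of its probe sets.

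Among 22 measured germinal centre genes, 5 rose, 1 fell and 16 were not called, against 5.52% of all genes called higher. The median difference of the list was 1.47 log2, with 1.08 log2 against Namalwa replicate 1 and 1.79 log2 against replicate 2. At least 1 log2 above both Namalwa arrays lay 11 members, as 4.66% of all genes did. More members rose without Reh replicate 1 or without Namalwa replicate 1, and fewer without Namalwa replicate 2. The number of genes called higher over the whole table moved in the same directions. Without Reh replicate 1 it grew less, in proportion, than the count of the list did. Of the 22 genes, 9 exceeded Reh replicate 2 by at least 1 log2 in Reh replicate 1, which was not counted over all genes. At least 1 log2 lower in Namalwa replicate 2 than in replicate 1 were 7, as were 699 of all 19735 genes. The part of these differences between duplicates in the result was not tested beyond leaving out each array.

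BCL6, the repressor that maintains the germinal centre program, was at 13.04 in SU-DHL-4, against 11.64 and 10.18 in Namalwa (2.13 ± 0.74 log2, adjusted p = 0.114, and 0.035 without Reh replicate 1). LMO2, a LIM domain cofactor, was at 7.58 in SU-DHL-4, against 5.74 and 4.64 (2.40 ± 0.54 log2, adjusted p = 0.0216). KLHL6, which takes part in B cell receptor signalling, was at 10.72, against 9.05 and 8.48 (1.96 ± 0.48 log2, adjusted p = 0.0305). SU-DHL-4 was above both Namalwa arrays in these 3 genes. P2RY8, a receptor that keeps B cells in the follicle centre, was at 11.63 in SU-DHL-4, against 10.14 and 9.62 (1.75 ± 0.30 log2, adjusted p = 0.00556). CXCR5, the chemokine receptor for the follicle, was at 7.80, against 5.95 and 6.70 (1.48 ± 0.33 log2, adjusted p = 0.0195), and CXCR4, which draws cells to the dark zone, was at 11.44, against 12.29 and 12.46 (-0.94 ± 0.25 log2, adjusted p = 0.0468). The calls of LMO2 (adjusted p = 0.0823), KLHL6 (0.115) and CXCR4 (0.136) ended without Namalwa replicate 2. KLHL6 also lost its call when arrays were normalized again (0.0517), and CXCR4 with arrays centred on their medians (0.0649). LMO2 rose in 1 of its 2 probe sets and had 1.17 log2 as their mean. CXCR5 had 2.31 log2 as the mean of its probe sets and 3.13 log2 with the most variable one.

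Of 19 measured B cell surface antigens, 3 rose (CD22, CD52 and CD74) and 2 fell (CD24 and CD9), beside 5.52% of all genes called higher and 4.26% called lower, with a median of 0.22 log2. Without Reh replicate 1, 6 rose and 2 fell, and without Namalwa replicate 2, 1 rose and 3 fell. MS4A1, which encodes the antibody target CD20, was at 12.48 in SU-DHL-4, against 7.98 and 7.04 in Namalwa (4.97 ± 2.08 log2, adjusted p = 0.204). All 4 probe sets of MS4A1 were higher in SU-DHL-4, by 4.65 to 6.81 log2. MS4A1 stood at 11.47 in Reh replicate 1 and at 4.12 in Reh replicate 2, and its adjusted p was 3.19e-05 without the first of these arrays. CD22, a lectin that dampens B cell receptor signals, was at 10.41 in SU-DHL-4, against 8.56 and 8.24 (2.00 ± 0.37 log2, adjusted p = 0.00832). CD24, a glycoprotein of immature and germinal centre B cells, was at 8.63, against 12.15 and 12.53 (-3.71 ± 0.23 log2, adjusted p = 1.33e-05), lower in all 6 probe sets. CD9, a tetraspanin, was at 4.93, against 10.23 and 9.61 (-4.98 ± 0.51 log2, adjusted p = 0.000316), in 1 of its 3 probe sets, while the others had -0.06 and 0.04 log2 and the mean was -1.67 log2. CD52 (1.43 log2, adjusted p = 0.0382) was 0.96 log2 above Namalwa replicate 1 and 1.90 log2 above replicate 2, and its adjusted p was 0.107 without replicate 2.

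**Figure D3:**
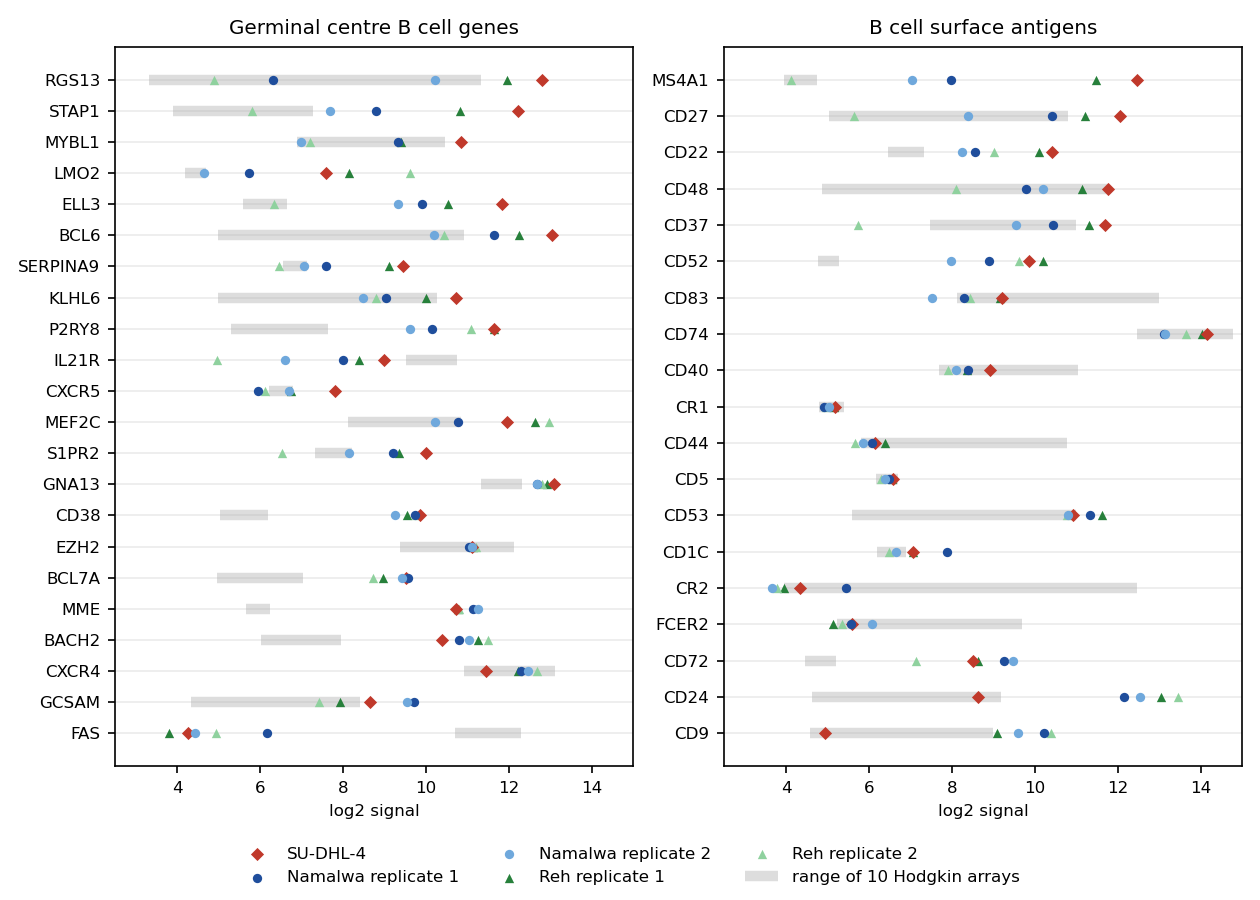
Log2 signal (horizontal axis) of each measured germinal centre gene (left panel) and B cell surface antigen (right panel), ordered by the difference, with a diamond for SU-DHL-4, circles for the Namalwa arrays, triangles for the Reh arrays and a grey bar for the range of the 10 Hodgkin arrays. In MS4A1 and RGS13 the 2 Reh arrays lie over 7 log2 apart, and in CD9 and CD24 SU-DHL-4 lies below both Namalwa arrays.

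In the B cell receptor signalling list 6 of 28 measured genes rose and 1 fell, beside 5.52% of all genes called higher and 4.26% called lower, with a median of 0.33 log2. The counts were 4 and 2 when arrays were normalized again, and 3 and 1 without Namalwa replicate 2. BTK, the kinase that couples the receptor to calcium signalling, was at 10.60 in SU-DHL-4, against 9.58 and 9.54 in Namalwa (1.03 ± 0.20 log2, adjusted p = 0.0103). VAV3, a guanine nucleotide exchange factor, was at 6.76, against 5.11 and 4.65 (1.88 ± 0.33 log2, adjusted p = 0.00651, with 1.17 log2 as the mean of its probe sets and 1.21 log2 with the most variable one). Its relative VAV1 was at 9.96, against 9.20 and 8.46 (1.13 log2, adjusted p = 0.0307, and 0.0624 without Namalwa replicate 2). PRKCB, a protein kinase C that carries the signal to NF-kB, was the single fall, at 7.42 in SU-DHL-4, against 10.45 and 10.20 (-2.90 ± 0.32 log2, adjusted p = 0.000466), and it was over 1 log2 lower in 5 of its 6 probe sets, with a mean of -1.88 log2.

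Of 22 measured B lineage transcription factors, 2 rose and 1 fell, beside 5.52% of all genes called higher and 4.26% called lower (median -0.05 log2). FOXO1, a factor of the dark zone, was at 10.32 in SU-DHL-4, against 8.98 and 8.53 in Namalwa (1.56 ± 0.31 log2, adjusted p = 0.0126, and 0.0502 without Namalwa replicate 2, with 0.98 log2 as the mean of its probe sets). BCL11A was at 11.44, against 10.43 and 9.91 (1.27 log2, adjusted p = 0.0208, and 0.0745 without Namalwa replicate 2). TCF4, an E protein of B cells, was at 9.20, against 12.40 and 11.73 (-2.87 ± 0.38 log2, adjusted p = 0.00145). TCF4 was lower in all 8 of its probe sets, by -3.04 to -1.75 log2.

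The list of plasma cell and activated B cell genes had 4 rises and 3 falls among 24 measured, beside 5.52% of all genes called higher and 4.26% called lower (median -0.01 log2, which turned to 0.03 with arrays centred on their medians). The falls were IRF4, XBP1 and CREB3L2 and the rises FUT8, CCND2, ENTPD1 and PIM1. IRF4, a factor of plasma cell differentiation, was at 5.81 in SU-DHL-4, against 9.30 and 9.07 in Namalwa (-3.37 ± 0.22 log2, adjusted p = 1.98e-05). XBP1, which expands the secretory apparatus, was at 6.72, against 10.58 and 10.44 (-3.79 ± 0.28 log2, adjusted p = 4.72e-05). CREB3L2, a factor of the endoplasmic reticulum stress response, was at 3.76, against 10.09 and 9.43 (-6.0 ± 0.32 log2, adjusted p = 5.31e-06). At least 1 probe set of each lay close to 0, at 0.06 log2 for IRF4, 0.08 for XBP1 and -0.12 for CREB3L2. The mean over all probe sets was -1.35 log2 for IRF4, -1.85 for XBP1 and -2.42 for CREB3L2, all called. The rises were smaller, FUT8, a fucosyltransferase, being the largest at 1.70 log2 (adjusted p = 0.0199). Without Namalwa replicate 2 the list had 0 rises and 3 falls, and all 4 rising genes had lost their calls (adjusted p = 0.0539 for FUT8, 0.0783 for CCND2, 0.0832 for ENTPD1 and 0.103 for PIM1). The rises were also lost under other settings, FUT8 with its most variable probe set (1.5 log2, adjusted p = 0.0625), CCND2 without Namalwa replicate 1 (0.0588) and as the mean of its probe sets (0.33 log2, 0.55), ENTPD1 as that mean (0.65 log2, 0.138) and with its most variable one (0.39 log2, 0.432), and PIM1 with the other variance model (0.0509).

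The list of the unfolded protein response and the secretory pathway had 0 rises and 4 falls among 25 measured genes, beside 5.52% of all genes called higher and 4.26% called lower (median -0.31 log2). CREB3L2 and XBP1 belong to it as well. ERN1, the sensor that splices XBP1 RNA, was at 5.14 in SU-DHL-4, against 8.71 and 7.47 in Namalwa (-2.95 ± 0.43 log2, adjusted p = 0.0026, with -1.73 log2 as the mean of its probe sets). SSR3, a subunit of the translocon-associated complex, had -0.76 log2 (adjusted p = 0.0466, and 0.0875 without Namalwa replicate 1, 0.0617 with arrays centred on their medians, 0.105 as the mean of its probe sets and 0.151 with the most variable one).

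MHC class II molecules display peptides to helper T cells. The 16 measured genes of this pathway had a median of 0.85 log2. Of them, 7 lay at least 1 log2 above both Namalwa arrays, as 4.66% of all genes did. Beside 5.52% of all genes called higher and 4.26% called lower, 9 of the 16 rose and 0 fell. The count was 9 without Reh replicate 1 and without Namalwa replicate 1, 8 when arrays were normalized again and 5 without Namalwa replicate 2. The genes of this group are known to share promoter elements, among them the Y box, whose core is CCAAT and which the factor NF-Y binds. Stretches of 120 bases upstream of the start of 3 of the called genes are shown from RefSeq (GRCh38.p14), with CCAAT on either strand in capitals. Only this core was searched for, and its place relative to other promoter elements was not examined, so a match need not be the Y box. The stretches are HLA-DMB at chr6:32941029-32941148 on the minus strand, HLA-DPB1 at chr6:33075870-33075989 on the plus strand and HLA-DOB at chr6:32817003-32817122 on the minus strand.
HLA-DMB: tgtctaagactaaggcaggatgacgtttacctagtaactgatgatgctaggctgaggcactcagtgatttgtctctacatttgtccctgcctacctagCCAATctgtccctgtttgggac
HLA-DPB1: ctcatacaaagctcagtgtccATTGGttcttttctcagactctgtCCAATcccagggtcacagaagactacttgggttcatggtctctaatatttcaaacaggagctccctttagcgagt
HLA-DOB: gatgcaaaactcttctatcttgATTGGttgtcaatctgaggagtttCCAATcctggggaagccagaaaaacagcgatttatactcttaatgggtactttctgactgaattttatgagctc
In these windows HLA-DMB holds 1 match and HLA-DPB1 and HLA-DOB hold 2 each. Over the 250 bases upstream, CCAAT on either strand was found in 10 of the 13 promoters matched by symbol to the list. It was found in 8 of the 9 called genes, against 32% of 35116 promoters in the RefSeq table. The list had 1 promoter per symbol, whereas the 35116 are all promoters there, whether or not their genes were measured. The shares are therefore not on like sets. A match is a description of the sequence and not a site shown to be used.

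HLA-DOB and HLA-DMB encode chains of the molecules that edit peptide loading. HLA-DOB was at 10.15 in SU-DHL-4, against 5.95 and 6.10 in Namalwa (4.12 ± 0.91 log2, adjusted p = 0.0192, and 0.0572 without Namalwa replicate 2). HLA-DMB was at 10.64, against 8.34 and 8.46 (2.24 ± 0.26 log2, adjusted p = 0.000646). Among the chains that present peptide, HLA-DPB1 was at 12.50, against 10.37 and 10.27 (2.18 ± 0.32 log2, adjusted p = 0.0026), and HLA-DQB1 at 10.92, against 8.09 and 7.96 (2.89 ± 0.42 log2, adjusted p = 0.00228). In these 4 genes the Namalwa arrays lay within 0.15 log2 of each other and SU-DHL-4 at least 2 log2 above them. HLA-DOB was higher in 1 of its 2 probe sets (mean 2.00 log2) and HLA-DQB1 in 6 of 7 (mean 1.84 log2), its most variable one having 3.37 log2 without a call (adjusted p = 0.15). CD74, the invariant chain that guides class II molecules, was at 14.16, against 13.11 and 13.14 (1.03 ± 0.24 log2, adjusted p = 0.0221, and 0.0549 without Namalwa replicate 2), with 1 of its 3 probe sets lower. As the mean of the 3 CD74 was not called (1.10 log2, adjusted p = 0.0708), and its most variable probe set had 2.98 log2 (adjusted p = 0.00505). CIITA, the coactivator of these genes, was lower in SU-DHL-4 by -0.67 log2 and not called (adjusted p = 0.131). HLA-DQA1 differed by 0.11 log2 in the probe set that stands for it, which has the highest mean over all 15 arrays but was at 5.63 in SU-DHL-4 and at 5.53 and 5.52 in Namalwa. Its other probe sets were at 11.77 and 8.49 in SU-DHL-4, the first against 8.47 and 7.82 and the second against 4.20 and 3.87 in Namalwa, with differences of 3.62 and 4.45 log2, so its difference depends on the probe set. HLA genes vary between people and resemble one another, so probes can bind the alleles of 2 lines unequally, and whether that happened here was not tested.

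MHC class I molecules present peptides to cytotoxic T cells. Of 18 measured genes 5 fell and 2 rose, beside 4.26% of all genes called lower and 5.52% called higher, and the median was -0.44 log2. HLA-B was at 9.86 in SU-DHL-4, against 12.63 and 12.49 in Namalwa (-2.70 ± 0.24 log2, adjusted p = 0.000132), lower in all 3 probe sets. HLA-C was at 10.13, against 12.38 and 12.31 (-2.22 ± 0.18 log2, adjusted p = 8.74e-05), lower in all 4 probe sets. NLRC5, the coactivator of class I genes, was at 5.41, against 7.88 and 7.69 (-2.38 ± 0.28 log2, adjusted p = 0.000725). SU-DHL-4 also lay below every Hodgkin and Reh array in HLA-B and HLA-C, whose lowest Hodgkin values were 12.18 and 12.60. ERAP2, a peptidase that trims peptides, had -1.73 log2 (adjusted p = 0.0204, and 0.0521 without Namalwa replicate 1), with probe sets from -1.73 to 0.40 log2 and no call as their mean (-0.83 log2, adjusted p = 0.206). TAP2, a chain of the peptide transporter, was higher by 1.46 ± 0.26 log2 (adjusted p = 0.00695) and TAPBP, which docks class I molecules to it, by 1.20 ± 0.16 log2 (adjusted p = 0.0017). Each of the rises was lost with another choice of probe set, TAP2 with its most variable one (1.08 log2, adjusted p = 0.167) and TAPBP as the mean of its 3 (0.58 log2, adjusted p = 0.272).

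Interferon-stimulated genes encode antiviral proteins, and 6 of 36 measured fell while 0 rose (4.26% of all genes were called lower and 5.52% higher). The median was -0.51 log2, and it was -0.72 log2 against Namalwa replicate 1 and -0.19 log2 against replicate 2. Of the 36 genes, 9 were at least 1 log2 lower in Namalwa replicate 2 than in replicate 1, as were 699 of all 19735 genes. More members fell without Namalwa replicate 2 or without Reh replicate 1, and fewer without Namalwa replicate 1. Some rose without Namalwa replicate 1 or without Reh replicate 1. Over the whole table the genes called lower were more in each of these fits. Those called higher were more without Namalwa replicate 1 or without Reh replicate 1. Promoters of these genes are known for the interferon-stimulated response element, searched for here as GAAA and GAAA again with any 2 bases between them, on either strand. The 250 bases upstream of the called genes IFIT3, at chr10:89327747-89327996, and IFIT5, at chr10:89414318-89414567, both on the plus strand of GRCh38.p14 (RefSeq), hold 2 matches each, in capitals.
IFIT3: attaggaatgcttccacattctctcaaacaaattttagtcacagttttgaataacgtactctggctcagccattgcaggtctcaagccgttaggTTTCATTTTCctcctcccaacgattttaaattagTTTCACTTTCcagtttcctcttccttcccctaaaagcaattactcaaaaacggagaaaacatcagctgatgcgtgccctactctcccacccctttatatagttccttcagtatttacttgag
IFIT5: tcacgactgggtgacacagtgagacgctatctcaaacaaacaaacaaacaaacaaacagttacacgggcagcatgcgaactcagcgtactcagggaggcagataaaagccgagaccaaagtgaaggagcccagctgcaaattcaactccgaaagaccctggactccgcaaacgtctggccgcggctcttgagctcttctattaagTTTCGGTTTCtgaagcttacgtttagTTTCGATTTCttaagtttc
The element was found in 17 of the 28 promoters matched to the list, against 3.02% of 35116 promoters. It was found in 2 of the 4 called genes that had a promoter in the table. Here too the list had 1 promoter per symbol and the 35116 were all promoters, so the shares are not on like sets.

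IFIT3, which binds viral RNA together with its relatives, was at 3.47 in SU-DHL-4, against 7.34 and 6.66 in Namalwa (-3.53 ± 0.51 log2, adjusted p = 0.00231, and -2.04 log2 as the mean of its probe sets). IFIT5 was at 4.76, against 6.74 and 7.24 (-2.23 ± 0.39 log2, adjusted p = 0.00666). SU-DHL-4 was below all other arrays of the series in both. MX1, a GTPase that blocks viruses, was at 5.04, against 8.66 and 6.80 (-2.69 ± 0.64 log2, adjusted p = 0.028), and -1.76 log2 against Namalwa replicate 2 alone. MX2 was at 5.49, against 8.37 and 7.28 (-2.33 ± 0.39 log2, adjusted p = 0.00511). IFI27 was the gene with the largest excess of Namalwa replicate 1 over replicate 2, at 5.31 in SU-DHL-4, against 10.42 and 5.92. It was not called (-2.85 log2, adjusted p = 0.257) with both Namalwa arrays and was called against replicate 1 alone (-5.10 log2, adjusted p = 0.000428).

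**Figure D4:**
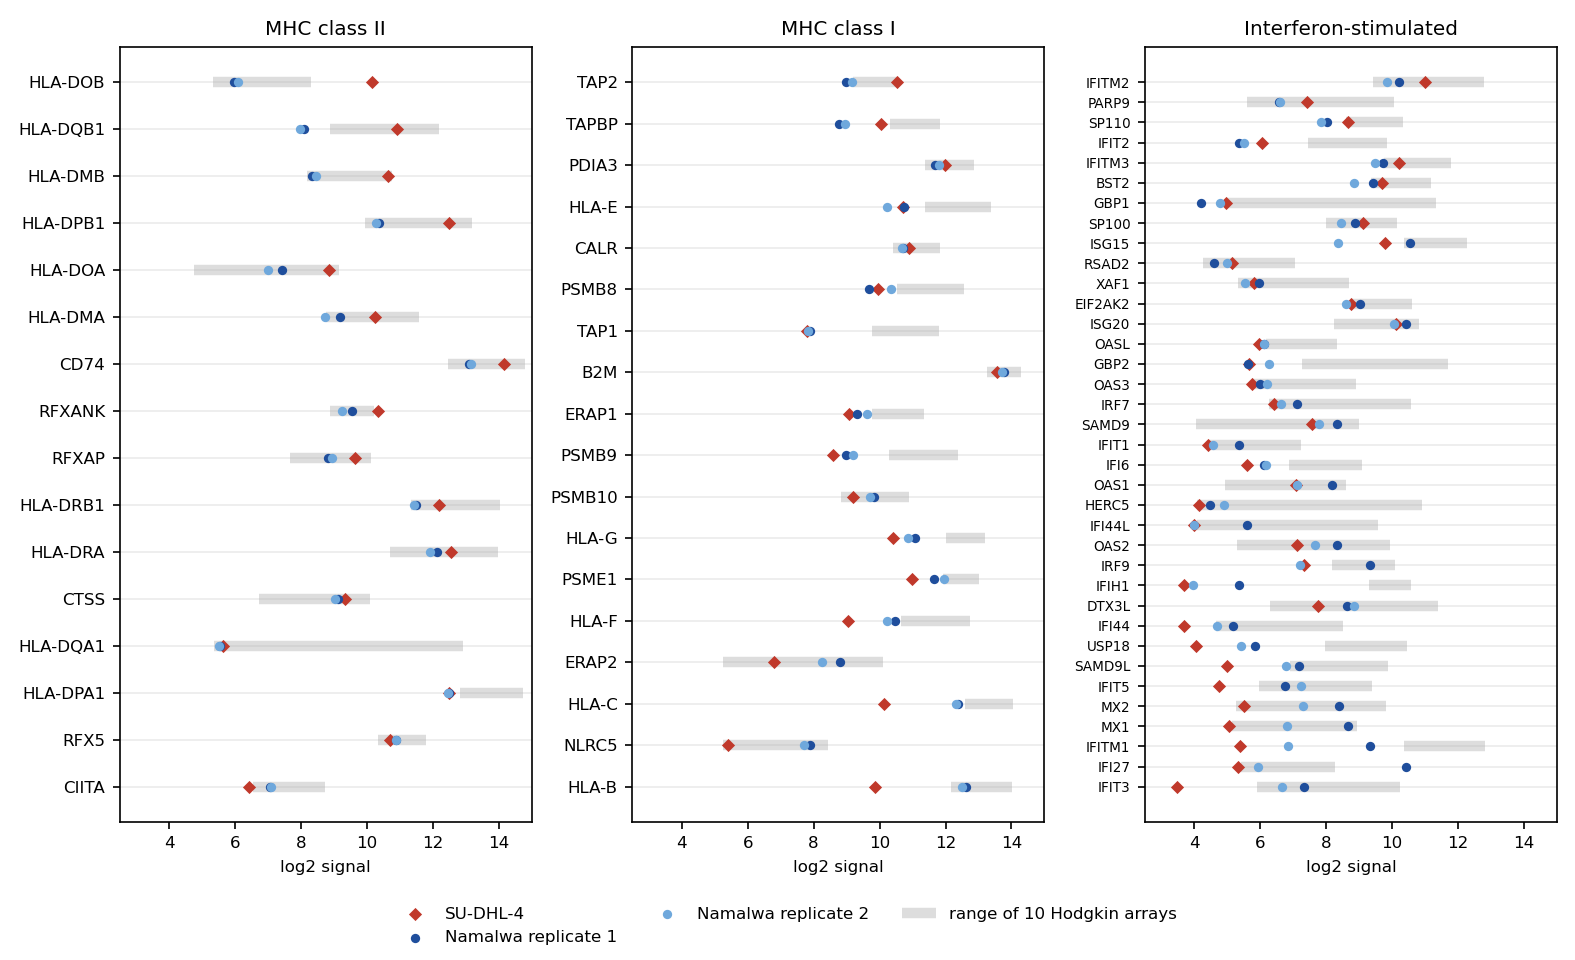
Log2 signal (horizontal axis) of the measured genes of the MHC class II list (left panel), the MHC class I list (middle panel) and the interferon-stimulated list (right panel), ordered by the difference, with a diamond for SU-DHL-4, circles for the Namalwa arrays and a grey bar for the range of the 10 Hodgkin arrays. SU-DHL-4 lies right of both Namalwa arrays in most class II genes and left of them in HLA-B, HLA-C, NLRC5 and IFIT3.

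In the BCL2 family, which sets the threshold for mitochondrial cell death, 3 of 20 measured genes fell and 0 rose, beside 4.26% of all genes called lower and 5.52% called higher. The median was 0.16 log2, and -0.01 log2 when arrays were normalized again. With the mean of all probe sets 2 rose and 3 fell, and rises also appeared without Namalwa replicate 1 or without Reh replicate 1. BCL2, the founding inhibitor of apoptosis, was at 4.10 in SU-DHL-4, against 8.69 and 7.18 in Namalwa, by its brightest probe set (-3.84 ± 0.48 log2, adjusted p = 0.00107). Its other 3 probe sets did not share that fall. They stood at 5.53, 6.44 and 6.77 in SU-DHL-4, against 6.18 and 5.76, 5.498 and 6.06, and 6.33 and 6.56 in Namalwa, with differences of -0.44, 0.66 and 0.32 log2. The mean over the probe sets of BCL2 was -0.83 log2 (adjusted p = 0.0315), and which part of the transcript each one reads was not examined. BIK, an activator of apoptosis with a BH3 domain, was at 8.36 in SU-DHL-4, against 11.77 and 11.84 (-3.44 ± 0.44 log2, adjusted p = 0.00117), and HRK, another such protein, at 6.01, against 8.61 and 8.4 (-2.5 ± 0.24 log2, adjusted p = 0.000219). MYC itself was at 12.60 in SU-DHL-4, against 13.07 and 13.20 in Namalwa, and was not called (-0.53 ± 0.33 log2, adjusted p = 0.434).

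Of 28 genes of TNF receptors and ligands, 1 rose and 4 fell, beside 5.52% of all genes called higher and 4.26% called lower (median 0.03 log2). TNFRSF21, death receptor 6, was at 5.05 in SU-DHL-4, against 10.996 and 10.24 in Namalwa (-5.57 ± 0.42 log2, adjusted p = 4.85e-05). TNFRSF10B, a receptor for TRAIL, was at 9.86, against 7.85 and 7.24 (2.32 ± 0.28 log2, adjusted p = 0.00089, and 1.12 log2 as the mean of its probe sets). CD70, the ligand of CD27, had -1.67 log2, TNFRSF1A -1.43 and TNFRSF1B -1.42 log2, the last with an adjusted p of 0.0251, and 0.0948 without Namalwa replicate 2.

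In the NF-kB list 3 of 29 measured genes rose and 4 fell, beside 5.52% of all genes called higher and 4.26% called lower, with a median of -0.03 log2 that turned to 0.01 with arrays centred on their medians. CCL4, a chemokine that draws T cells, was at 7.49 in SU-DHL-4, against 10.83 and 10.07 in Namalwa (-2.96 ± 0.50 log2, adjusted p = 0.00524). CD80, a costimulatory ligand, was at 4.90, against 7.81 and 6.65 (-2.33 ± 0.40 log2, adjusted p = 0.00585), but as the mean of its probe sets it was not called (-1.51 log2, adjusted p = 0.0735). The rises were TRAF1 (1.68 log2, adjusted p = 0.0333), TNIP1 (1.29 log2, 0.038) and TNIP2 (1.20 log2, 0.0292), and all 3 lost their calls without Namalwa replicate 2 (adjusted p = 0.0854, 0.135 and 0.103). TRAF1 also did without Namalwa replicate 1 (0.0593) and as the mean of its probe sets (0.95 log2, 0.093). TNIP1 did as that mean (0.89 log2, 0.0625) and, like TNIP2, when arrays were normalized again (adjusted p = 0.056 and 0.0754). TRAF3 had -1.04 log2 (adjusted p = 0.0315, and 0.0677 without Namalwa replicate 1), and was not called as the mean of its probe sets (-0.69 log2, 0.103) or with the most variable one (-0.33 log2, 0.574). NFKBIZ had -1.88 log2 (adjusted p = 0.0475, with 0.161 without Namalwa replicate 2 and 0.0552 with arrays centred on their medians).

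Integrins bind cells to matrix and to one another. In the list of integrins and tetraspanins 8 of 32 genes rose and 2 fell, beside 5.52% of all genes called higher and 4.26% called lower (median 0.00 log2), and the count of rises was 5 without Namalwa replicate 2. The list includes TSPAN13, whose rise was known when it was written, so its count is no independent result. ITGAL, the alpha chain of LFA-1, was at 9.85 in SU-DHL-4, against 5.98 and 5.96 in Namalwa (3.88 ± 0.57 log2, adjusted p = 0.00262). ITGB1, the shared beta chain of many integrins, was at 12.45, against 9.64 and 10.26 (2.5 ± 0.41 log2, adjusted p = 0.0045, and 1.32 log2 as the mean of its 7 probe sets). ITGB7, the beta chain of gut homing integrins, was at 9.94, against 6.88 and 7.08 (2.96 ± 0.76 log2, adjusted p = 0.0376). Its call ended without either Namalwa array (adjusted p = 0.0715 without replicate 1 and 0.0903 without replicate 2) and when arrays were normalized again (0.057). TSPAN33, a tetraspanin of activated B cells, was at 9.96, against 6.6 and 7.71 (2.81 ± 0.47 log2, adjusted p = 0.00532). ITGA3 was lower by -1.4 log2 (adjusted p = 0.0189, and 0.0656 without Namalwa replicate 2).

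Of 28 genes of chemokine receptors and migration, 6 rose and 2 fell, beside 5.52% of all genes called higher and 4.26% called lower (median 0.14 log2), among them the integrin genes, P2RY8, CXCR5 and CXCR4 described above. S1PR4, a receptor for sphingosine 1-phosphate, was at 7.01 in SU-DHL-4, against 8.87 and 9.15 in Namalwa (-2.0 ± 0.29 log2, adjusted p = 0.00238). RGS13, a brake on chemokine receptor signals in the germinal centre, was at 12.80 in SU-DHL-4, against 6.30 and 10.22, and was not called (4.55 ± 2.29 log2, adjusted p = 0.308, and 0.0392 without Reh replicate 1). It was the gene with the largest excess of Namalwa replicate 2 over replicate 1.

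Among 30 measured genes of cytokine receptors and JAK-STAT signalling 4 rose and 3 fell, beside 5.52% of all genes called higher and 4.26% called lower, with a median of 0.08 log2 that turned to -0.02 when arrays were normalized again. IL7R, the receptor of a growth factor for precursor B cells, was at 6.80 in SU-DHL-4, against 10.61 and 10.60 in Namalwa (-3.80 ± 0.32 log2, adjusted p = 9.15e-05). IL15RA was at 5.34, against 7.08 and 7.27 (-1.84 log2, adjusted p = 0.00651). STAT6, which carries the interleukin 4 signal, was at 10.98, against 9.64 and 9.64 (1.34 ± 0.22 log2, adjusted p = 0.00405). STAT5B rose by 1.76 log2 (adjusted p = 0.0101, and 0.106 with its most variable probe set, with 1.05 log2 as the mean), JAK2 by 1.42 (adjusted p = 0.0189, with 0.0609 without Namalwa replicate 2 and 0.0547 as the mean of its probe sets) and IL2RG by 1.4 log2 (adjusted p = 0.0203). IL2RG lay 0.93 log2 above Namalwa replicate 1 and 1.87 log2 above replicate 2. JAK1 was lower by -1.09 log2 (adjusted p = 0.0209), a call that ended with the mean of its probe sets (-0.65 log2, adjusted p = 0.0811).

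Of 16 Fc receptor and Fc receptor-like genes 3 rose and 3 fell, beside 5.52% of all genes called higher and 4.26% called lower (median -0.13 log2), and all 3 rises were in Fc receptor-like genes of B cells. FCRL3 was at 9.03 in SU-DHL-4, against 4.59 and 3.95 in Namalwa (4.76 ± 0.94 log2, adjusted p = 0.0119), FCRL1 at 6.15, against 4.16 and 4.14 (2.00 log2, adjusted p = 0.0184), and FCRL2 at 7.32, against 5.80 and 6.04 (1.4 log2, adjusted p = 0.0337). The 3 calls ended without Namalwa replicate 2, at adjusted p = 0.0503 for FCRL3, 0.0579 for FCRL1 and 0.0625 for FCRL2, and that of FCRL2 without replicate 1 as well (0.0706). FCRL3 had 2.71 log2 as the mean of its probe sets and FCRL2 4.06 log2 with its most variable one. FCER1G, a signalling chain of Fc receptors, had -1.45 log2 (adjusted p = 0.0299, and 0.0833 as the mean of its probe sets) with -1.97 log2 against Namalwa replicate 1 and -0.92 log2 against replicate 2. FCGRT, the neonatal Fc receptor, had -1.07 log2 (adjusted p = 0.00772).

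In the list of SLAM receptors and adaptors, 2 of 25 genes rose and 3 fell, beside 5.52% of all genes called higher and 4.26% called lower (median -0.13 log2). LY9, a SLAM receptor, was at 8.98 in SU-DHL-4, against 5.21 and 5.41 in Namalwa (3.67 ± 0.51 log2, adjusted p = 0.00192), with all 3 probe sets between 3.64 and 3.77 log2. GAB1, an adaptor that recruits PI3 kinase, was at 5.26, against 8.09 and 8.86 (-3.21 ± 0.39 log2, adjusted p = 0.000873, and -4.85 log2 with its most variable probe set). The 3 remaining calls were below 1 log2 in size. They were SKAP2, SH2D1A and CD84, and each was lost without 1 or both of the Namalwa arrays (adjusted p = 0.0615 for SKAP2, 0.0543 for SH2D1A and 0.058 for CD84 without replicate 1, and 0.104 for SKAP2 and 0.0779 for CD84 without replicate 2). As the mean of their probe sets SKAP2 (adjusted p = 0.0554) and SH2D1A (-0.57 log2, 0.382) were not called, and CD84 had -1.32 log2 so and -2.57 log2 with its most variable one. SKAP2 was not called with its most variable probe set (0.0524) or when arrays were normalized again (0.11) either.

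YBX3 belongs to the proteins that bind RNA and regulate its stability and translation. Of 23 measured genes in this list 7 fell and 1 rose, beside 4.26% of all genes called lower and 5.52% called higher (median -0.24 log2), and the counts without any single Namalwa or Reh array were 6 or 7 falls. Besides YBX3 and LIN28B, IGF2BP2 was at 3.79 in SU-DHL-4, against 9.38 and 8.83 in Namalwa (-5.32 ± 0.29 log2, adjusted p = 6.34e-06, and -3.29 log2 as the mean of its probe sets). RBMS1 was at 5.77, against 11.27 and 10.69 (-5.21 ± 0.28 log2, adjusted p = 5.18e-06), lower in all 6 probe sets. IGF2BP1, another member of the oncofetal family of IGF2BP2, fell by 3.38 log2. ZFP36L1, which marks RNAs with AU-rich elements for decay, was the rise, at 9.18, against 6.79 and 6.48 (2.55 ± 0.27 log2, adjusted p = 0.000396), in 1 of its 4 probe sets and with 0.69 log2 as their mean. The list includes YBX3 and LIN28B, whose falls were known when it was written, so its count is no independent result.

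In the lists that follow, the counts likewise stand beside 5.52% of all genes called higher and 4.26% called lower. Of 28 chromatin modifiers 3 rose and 4 fell, with a median of 0.02 log2 that turned to -0.11 when arrays were normalized again. TET2, which oxidises methylated cytosine, was at 3.95 in SU-DHL-4, against 8.08 and 7.96 in Namalwa (-4.07 ± 0.39 log2, adjusted p = 0.000226), in 1 of its 3 probe sets and with -1.81 log2 as their mean. DNMT3A had -1.84 log2 (adjusted p = 0.00636, and 0.309 as the mean of its probe sets) and DNMT3B -1.29 log2 (adjusted p = 0.0299, and 0.0579 and 0.0674 without Namalwa replicates 1 and 2). In the MYC network 1 of 27 genes rose and 3 fell (median -0.14 log2), and 0 of these calls held without Namalwa replicate 2. Among cell cycle and p53 response genes 3 of 27 rose and 1 fell (median 0.18 log2), with CDKN1A, the p53 target p21, at 7.19, against 9.60 and 8.55 (-1.88 ± 0.41 log2, adjusted p = 0.0175), and DDB2, a DNA repair gene and p53 target, at 9.12, against 7.90 and 7.89 (1.22 log2, adjusted p = 0.00758).

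Besides PSMA8, 1 proteasome subunit of 17 rose and 2 fell, beside 5.52% of all genes called higher and 4.26% called lower (median -0.23 log2). PSMB5, the catalytic subunit that is the target of bortezomib, was at 10.11 in SU-DHL-4, against 12.01 and 11.80 in Namalwa (-1.80 ± 0.23 log2, adjusted p = 0.00131). In the glycolysis list 3 of 29 genes rose and 1 fell (median 0.12 log2). HK1, the hexokinase that starts glycolysis, was at 11.36, against 9.22 and 8.76 (2.37 ± 0.25 log2, adjusted p = 0.000419), and P4HA1, a collagen hydroxylase induced by hypoxia, at 9.98, against 8.64 and 7.46 (1.93 log2, adjusted p = 0.0185, with 1.16 log2 as the mean of its probe sets). Of 19 cancer-testis antigens 0 rose and 1 fell, ACTL8 by -1.73 log2 (adjusted p = 0.021, and 0.0787 without Namalwa replicate 2).

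**Figure D5:**
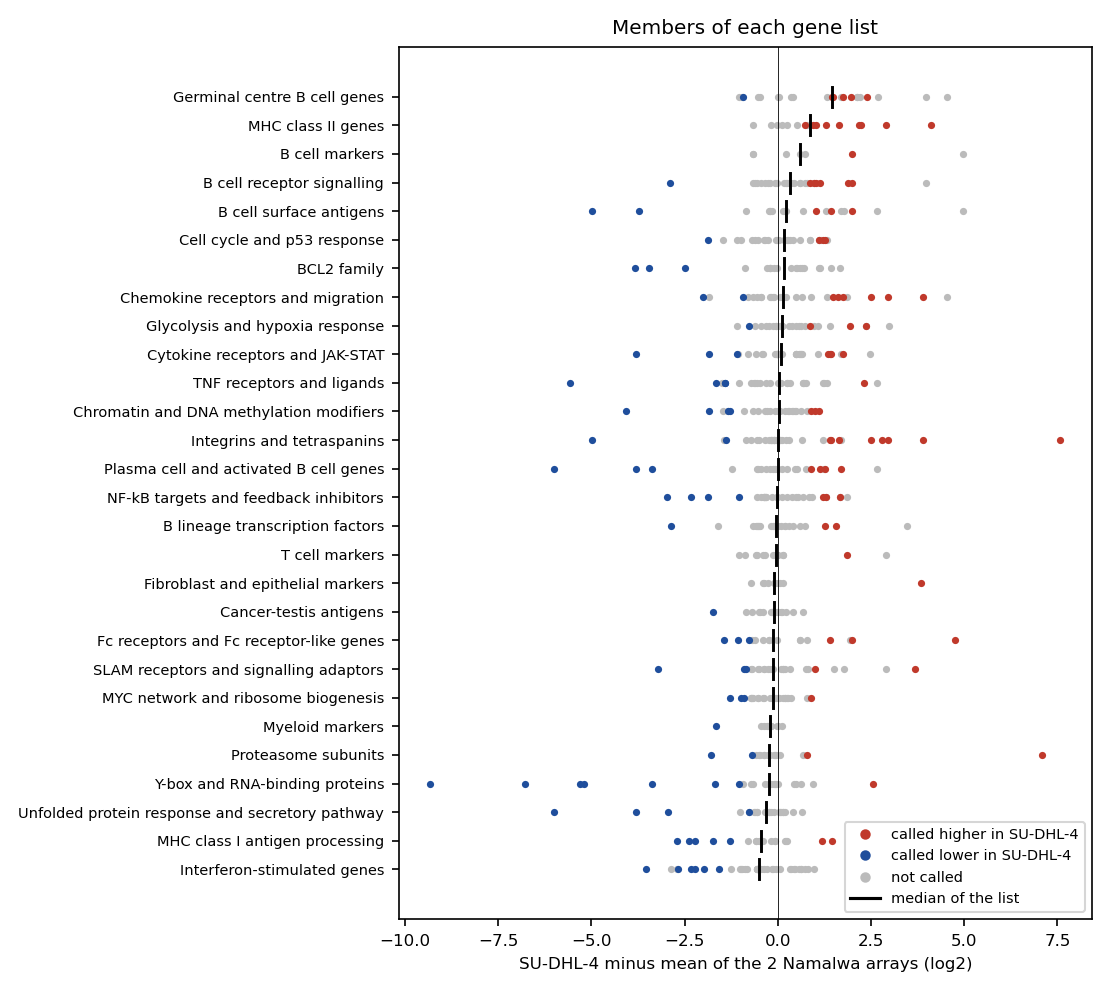
Difference of SU-DHL-4 from the mean of the 2 Namalwa arrays (horizontal axis, log2) for each measured gene of the 28 lists (rows, ordered by their medians), with genes called higher in red, called lower in blue, not called in grey and a black bar at the median. The germinal centre and MHC class II lists have the highest medians, at 1.47 and 0.85 log2, and the interferon-stimulated list the lowest, at -0.51 log2.

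Markers of other cell types were compared as well. The median signal of 15 T cell genes was 5.41 in SU-DHL-4, against 6.03 and 5.38 in Namalwa. That of 12 myeloid genes was 4.63, against 4.52 and 5.08, and that of 10 fibroblast and epithelial genes 5.05, against 5.03 and 5.99. The median of all probe sets on these arrays was 5.52, against 5.54 and 5.56. It takes every probe set, whereas the lists take the brightest one of each gene, so the list medians cannot be placed by it. With 1 probe set a gene, 8750 of 19735 genes had a Namalwa mean below 6 log2. The highest of the T cell genes was the kinase LCK, at 11.59 in SU-DHL-4, against 9.61 and 7.79, which was not called (adjusted p = 0.211). The T cell genes CD3D and CD3E were at 5.94 and 5.76 in SU-DHL-4, with CD3D at 7.04 and 5.94 and CD3E at 6.03 and 5.18 in Namalwa. The myeloid genes CD14 and LYZ were at 4.90 and 4.12 in SU-DHL-4, with CD14 at 4.92 and 5.63 and LYZ at 4.0 and 4.64 in Namalwa. None of these 4 genes was called (adjusted p = 0.553 for CD3D, 0.884 for CD3E, 0.641 for CD14 and 0.76 for LYZ). In the T cell list CD247, a T cell receptor chain, was the 1 rise among 15 (1.85 log2, adjusted p = 0.00564, with 1.02 log2 as the mean of its probe sets), and in the myeloid list the factor CEBPA the 1 fall among 12 (-1.65 log2, adjusted p = 0.00117). Of 10 fibroblast and epithelial genes DCN, a matrix proteoglycan, was at 9.92 in SU-DHL-4, against 5.86 and 6.27 in Namalwa (3.85 ± 0.81 log2, adjusted p = 0.0158). DCN was at 8.11 in Reh replicate 1 and at 5.32 in replicate 2, and its most variable probe set was not called (adjusted p = 0.0584).

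Between the Namalwa arrays, 660 genes were at least 1 log2 higher and 699 at least 1 log2 lower in replicate 2, as a description with no test. Among genes with a mean of 8 to 10 log2 the median of replicate 2 minus replicate 1 was -0.24 log2, and below 6 log2 it was 0.07 log2. After IFI27, the genes most reduced in replicate 2 were SOX4, LPP, a heavy chain variable gene, LINC01234 and HACD4. SOX4, a transcription factor of precursor B cells, was at 9.32 in SU-DHL-4, against 7.72 in Namalwa replicate 1 and 3.97 in replicate 2, and LPP at 11.02, against 11.31 and 7.86. After RGS13, the genes most raised in replicate 2 were CTSLP8, MAST4, HOTTIP, JAM2 and PTPRN2. JAM2, an adhesion molecule, was at 5.62 in SU-DHL-4, between the 4.24 of Namalwa replicate 1 and the 6.83 of replicate 2. CTSLP8 was at 4.78 in SU-DHL-4, against 5.0 and 7.67. For LPP, MAST4, HOTTIP, JAM2 and PTPRN2 the sign of the difference depended on which Namalwa array SU-DHL-4 was set against.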

How the data were processed

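The authors deposited log2 signals per probe set. Per the submitters' processing notes they used RMA, a method that removes background, brings arrays to a common scale and combines the probes of a set. Its version and settings were not given in the sources used here. RMA shrinks differences between dim signals, so changes of genes near background in either line are understated. The number of arrays limits the precision.

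Of 54675 probe sets, 62 controls were left out, 41091 had 1 gene symbol in the platform annotation, 1801 several and 11721 none. Of the first kind 41037 matched RefSeq (GRCh38.p14) by Entrez identifier and 54 did not and were left out. The brightest probe set, by its mean across the 15 arrays, stood for a gene, which gave 19735 genes, 10513 with several. The array files name no genome build, and coordinates are those of the RefSeq promoter table. A few genes are not reported.

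All 15 arrays were fitted with 1 mean per cell line (limma 3.58.1 under R 4.3.3, functions lmFit and eBayes), with 6 residual degrees of freedom from the duplicated lines. Two-sided p-values were adjusted by Benjamini-Hochberg across the whole table, and genes under 0.05 were called. On simulated data the fit recovered 94% of changes of 2 log2 and 100% of changes of 4 log2 among 200 changed genes of 19735, with 10 false calls. The simulation gave all arrays of a gene the same spread, SU-DHL-4 included. It therefore cannot show the errors that arise if SU-DHL-4 or Namalwa varies more than the other lines. Alternatives left out each Namalwa and Reh array or used the 3 arrays alone. They also took the mean of the probe sets or the most variable one, genes with a mean of at least 6 log2, other normalizations, other variance models, a margin of 1 log2 and the replicate number.

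The comparison, its members, the gene lists and the rule for named genes were chosen with earlier results of these data known. The rule took, from the called genes, the 15 that rose most and the 15 that fell most at least 1 log2 beyond both Namalwa arrays, and for each of 28 lists up to 4 called members in each direction. It added fixed markers, the 6 genes that differed most between the Namalwa arrays in each direction, the 6 called genes that each line held furthest from all other arrays, and the 3 largest called list members not beyond both arrays. RGS13, CIITA, HLA-DQA1 and IGF2BP1 were named in lists, LCK among markers, and further list members in counts, after their values were seen.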

Additional observations from a re-analysis of the deposited data

How the results depend on the processing

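Counts moved with the arrays in the fit. Leaving out 1 array at a time gave 640 to 1572 higher genes and 891 to 1529 lower genes, with 640 higher and 891 lower without Namalwa replicate 2 and 1572 and 1529 without Namalwa replicate 1. Of the 1090 higher and 840 lower genes called with every array, 606 and 707 held without Namalwa replicate 2, and 984 and 666 without Namalwa replicate 1. Against each Namalwa array alone, 576 genes were called higher and 610 lower. With SU-DHL-4 and Namalwa alone (1 residual degree of freedom among 3 arrays) 22 were higher and 34 lower, and a test for a difference of at least 1 log2 called 111 and 230. The mean or the most variable probe set, the limit on dim genes, the variance model and centring gave counts within 1.5 times those reported. Signs turned between the Namalwa arrays for 7 named genes: without replicate 2 and without replicate 1, the differences were -0.27 and 0.57 log2 for CD3E, 0.12 and -0.53 for LYZ, -0.29 and 3.16 for LPP, 0.59 and -2.05 for MAST4, 0.48 and -2.16 for HOTTIP, 1.38 and -1.21 for JAM2, and 0.47 and -2.05 for PTPRN2. MAST4 also reversed with its most variable probe set (0.29 log2). None of the 7 was called with every array. SU-DHL-4 has no replicate number, so numbers pair no arrays of the comparison. Deviations of same-numbered arrays correlated at 0.14 to 0.36 in the 10 pairs among HDLM2, KM-H2, L1236, L428 and Reh, and at -0.07 to 0.06 in the 5 pairs with Namalwa. A fit with the replicate number as a block called 1282 higher and 947 lower. SU-DHL-4 has 1 array, so its own spread was not measured.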
